A study of Mus musculus with 5 samples.

Results

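The genes described are those in the cell nucleus that encode parts of oxidative phosphorylation, the process by which mitochondria turn the oxidation of nutrients into ATP. They were taken by symbol from a table of normalized counts of sorted intestinal cells: symbols that start with Nduf (complex I), with Sdh followed by a letter from a to d (complex II), with Uqcr (complex III), with Cox4 to Cox8 followed by a letter (complex IV) or with Atp5 (complex V). Leaving out 3 pseudogenes marked -ps, 96 of the 22042 genes in the table were members. Complex I contributed 48 of them, complex II 8, complex III 8, complex IV 15 and complex V 17. The prefixes Nduf and Sdh also took in 12 assembly factors, proteins that help to build complexes I and II without staying in them. All 96 members entered the tests, and 93 had a mean of at least 10 normalized counts over all libraries. The 3 below that level were Cox4i2, Cox6a2 and Ndufs6b.

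The cells came from the small intestine epithelium of C57Bl/6J mice, aged 6 to 8 weeks, that carried Cck-Cre and the Cre-dependent reporter R26-LSL-tdTomato. The reporter stays on in any cell with a history of Cck-Cre activity and in its descendants, so CCK+ (tdTomato+) is a lineage label and CCK- (tdTomato-) is the rest of the sorted epithelium. Mice were fasted overnight, or fasted and then refed Ensure, a liquid diet, for a time that the sources used here do not give. There were 4 groups of 3 libraries (CCK+ fasted, CCK+ refed, CCK- fasted and CCK- refed), each library from 1 mouse. Libraries carry the letters A, B and F (fasted) or C, D and E (refed), each letter standing for 1 CCK+ and 1 CCK- library. That a letter marks a mouse is not stated in the sources used here, so libraries are described by letter and the tests do not pair them. CCK is the gut hormone cholecystokinin, released by enteroendocrine cells (EECs), the rare hormone-secreting cells of the gut lining.

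In oxidative phosphorylation, complex I takes electrons from NADH and complex II (succinate dehydrogenase) takes them from succinate, an intermediate of the tricarboxylic acid cycle. Both pass them to ubiquinone, complex III hands them on to cytochrome c, and complex IV gives them to oxygen. Complexes I, III and IV pump protons as they do so, and complex V, the ATP synthase, lets the protons back through a rotating ring and makes ATP. A minority of the subunits of complexes I, III, IV and V are encoded in the mitochondrial DNA, whereas complex II is encoded in the nucleus alone. Absorptive enterocytes, the commonest cells of the villus epithelium, hold many mitochondria.

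The libraries summed to between 7061160 and 9868240 normalized counts in CCK+ and between 9900560 and 11371100 in CCK-, with 16656 to 18855 genes above 0 in each. These sums lie on the authors' scale and are not depths in reads. All 8 EEC markers were higher in CCK+, and their sum was 85249 to 275770 normalized counts there against 1401 to 2778 in CCK-. CCK+ fasted B stood apart, with the lowest EEC sum and the highest sum of 8 enterocyte markers (328475) of the 6 CCK+ libraries, and values without it are given where it changed a count. Among the other marker lists tested between CCK+ and CCK-, 6 of 8 enterocyte markers were lower in CCK+ (sums 132385 to 328475 against 345813 to 492143), 6 of 7 immune markers were higher (7341 to 12801 against 2928 to 9477), 3 of 6 cycling crypt markers were higher (1595 to 4035 against 1041 to 2683) and 1 of 5 stromal markers was higher. Of 6 goblet markers 1 was higher and 2 were lower, and no marker of Paneth cells (6) or tuft cells (4) was called or had an unadjusted p under 0.05. The red blood cell markers listed were not in the table. The part that these other cells have in the differences below was not tested.

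The first comparison asked how CCK+ and CCK- cells differed over both feeding states. Of the 96 members, 30 were lower and 3 were higher in CCK+ cells at an adjusted p under 0.05 (limma over all 22042 genes), and 71 lay below 0. Over all genes 14.1% were called lower and 19.6% higher, so the share of members called lower (30 of 96) stood above that of all genes and the share called higher (3 of 96) below it. Of the 13517 genes with a mean of at least 10, a level that 93 members reached, 2956 were lower and 3409 higher. Beside these genes the excess of members called lower is smaller. The median difference was -0.24 (log2, CCK+ minus CCK-) against 0.09 over all genes, or 0.01 over all genes with a mean of at least 10. Every CCK+ library lay below every CCK- library for 17 members and above for 0, while 5.93% and 9.74% of all genes did so. The 96 genes summed to 49648 to 70482 normalized counts in CCK+ libraries and to 77326 to 106863 in CCK- libraries, with no overlap. As a share of the library the ranges overlapped, at 0.692 to 0.890% in CCK+ and 0.738 to 0.984% in CCK-. In bulk RNA, fewer cells of a type and less RNA per cell cannot be told apart.

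The direction rests on the authors' scaling between libraries, because CCK- libraries have the larger totals. With every library set to the same total, 10 members were called lower and 19 higher in CCK+, and the median of the members moved to 0.16 while that of all genes with a mean of at least 10 moved to 0.40. At that scaling 1155 of these 13517 genes were called lower and 5374 higher. The share of members called lower was thus near that of these genes, and the share called higher was below it. The members' median lay below that of all genes by nearly the same amount under either scaling (-0.25 and -0.24). A scaling shifts the genes of a library alike, so this gap was bound to change little and does not test the scaling. Of the 30 members called lower, 10 stayed called lower at equal totals (Atp5b, Atp5c1, Atp5g3, Atp5pb, Cox7b, Ndufab1, Sdhaf3, Sdhd, Uqcrc2 and Uqcrfs1), 27 stayed below 0, and Cox7a2, Ndufb5 and Ndufv1 came to lie just above 0. All 3 members called higher stayed called higher. Directions below are those of the authors' scaling.

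**Figure D1:**
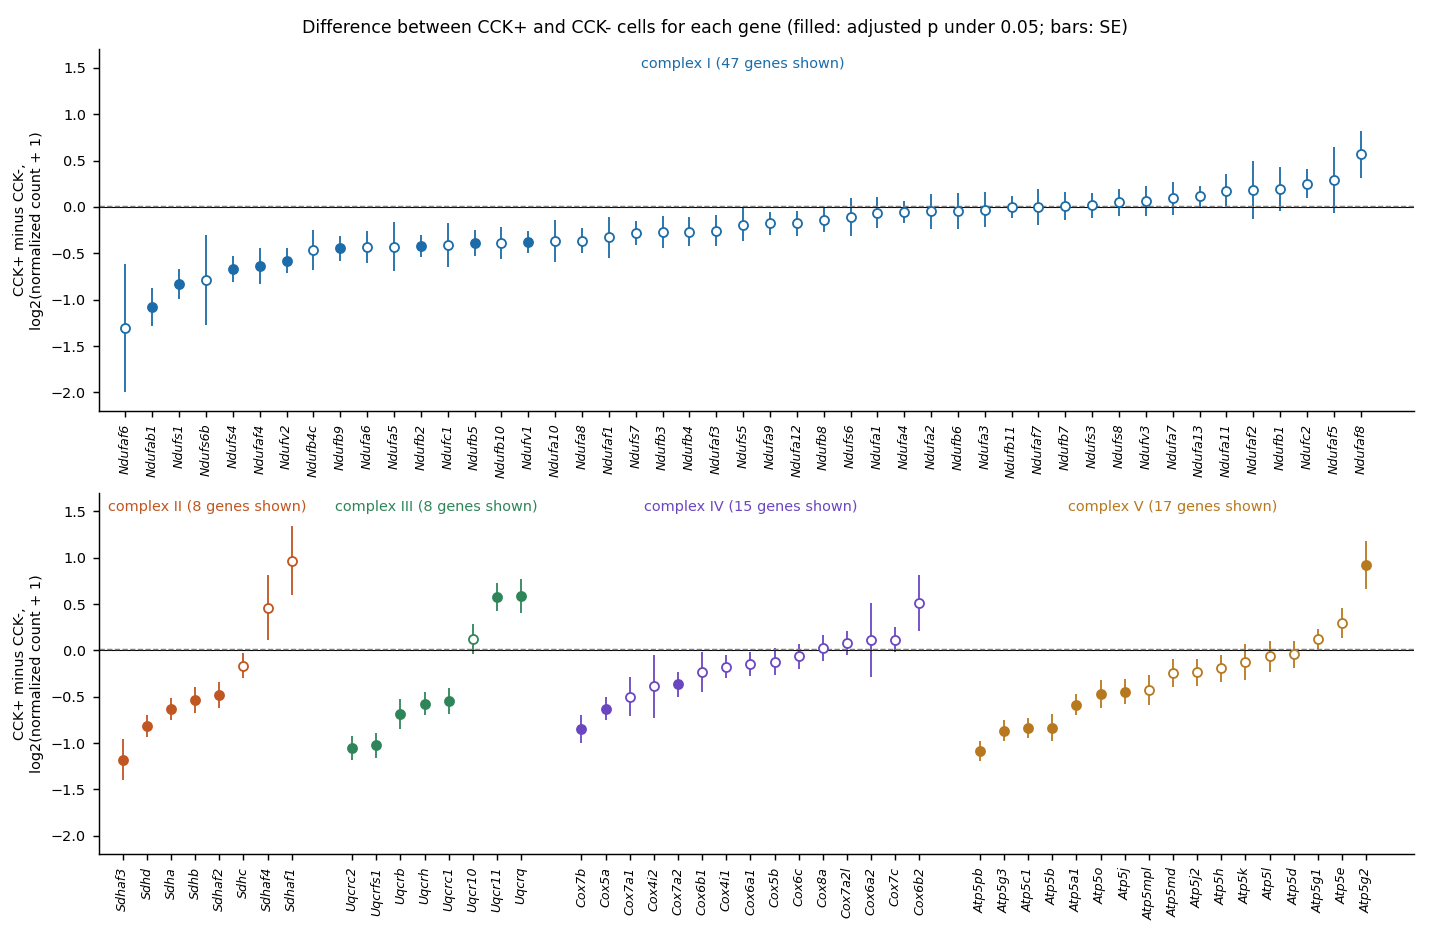
The plot gives, for 95 of the 96 genes, the log2 difference CCK+ minus CCK- with its standard error, grouped by complex, with filled points for genes called by limma and a dashed line at the median of all genes. Most points of complexes II and III lie well below the line, while 3 filled points lie above 0 (Uqcr11, Uqcrq and Atp5g2).

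The calls were then counted by the role of the protein. Of 14 core subunits of complexes I to III, 10 were lower and 0 higher, with a median of -0.56 log2. Of 47 accessory subunits, which surround the core, 10 were lower and 2 higher, with a median of -0.15. In complex V the catalytic head (F1) had 3 of 5 genes lower and the peripheral stalk, which holds the head still against the ring, 3 of 4. Of the 5 accessory subunits of the complex V membrane part, 0 were called by limma and 1 had an unadjusted p under 0.05. Of 12 assembly factors 3 were lower and 0 higher (median -0.13). Of all 13517 genes with a mean of at least 10, 2956 were lower and 3409 higher. The shares of accessory subunits and of assembly factors called lower were near that of these genes. At equal totals 3 core subunits were called lower and 2 higher (median -0.17), and 2 accessory subunits lower and 10 higher (median 0.25). At that scaling F1 had 2 genes lower and 2 higher, and the peripheral stalk 1 lower and 0 higher. Under all 4 scalings the median of the core subunits minus that of all genes was -0.58 to -0.57. For the accessory subunits it was -0.16 to -0.15. A scaling shifts the genes of a library alike, so these gaps were bound to change little and do not test it. The difference between roles was not tested.

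Members that moved together could be compared in their promoters. RefSeq (GRCm38.p6) held the 250 bases before and 50 bases after the start of 79 of the 96 genes, and these were searched on both strands for the letters of 3 motifs linked to genes of the respiratory chain. The motif of NRF-1 (GCGCANGCGC) was in 21 of the 79 (26.6%), against 5.19% of all 27025 genes searched and 10.8% of the 10290 with a mean of at least 10 normalized counts. The motif of ETS factors such as GABP (CCGGAAG) was in 22 (27.8%), against 9.93% and 19.2%. That of YY1 (AAGATGG) was in 12 (15.2%), against 7.28% and 8.34%. The NRF-1 letters were in 8 of 24 members that were lower in CCK+ and in 12 of 53 that were not called. For ETS these counts were 6 of 24 and 15 of 53, and for YY1 3 of 24 and 9 of 53. A match shows letters and not binding. The 6 promoters below show such matches in called members: Sdha, Sdhd and Atp5pb were lower in CCK+, Atp5g2 and Uqcr11 were higher, and Ndufaf4 was higher after refeeding in CCK+ cells. With 1 library left out, Ndufaf4 lost this call in 3 of 12 fits and Atp5g2 its call in 2. Other members that were lower, such as Atp5b, Cox7b, Ndufab1 and Uqcrfs1, held 0 matches to the 3 motifs. They are written along the gene's strand, with the matches in capitals.
Sdha (chr13:74350191-74350490, minus strand): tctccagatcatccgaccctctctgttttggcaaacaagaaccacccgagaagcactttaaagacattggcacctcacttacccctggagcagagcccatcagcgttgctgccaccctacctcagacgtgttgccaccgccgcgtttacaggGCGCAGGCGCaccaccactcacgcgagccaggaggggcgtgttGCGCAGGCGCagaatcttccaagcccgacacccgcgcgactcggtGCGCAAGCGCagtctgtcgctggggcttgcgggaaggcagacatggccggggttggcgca
Sdhd (chr9:50603800-50604099, minus strand): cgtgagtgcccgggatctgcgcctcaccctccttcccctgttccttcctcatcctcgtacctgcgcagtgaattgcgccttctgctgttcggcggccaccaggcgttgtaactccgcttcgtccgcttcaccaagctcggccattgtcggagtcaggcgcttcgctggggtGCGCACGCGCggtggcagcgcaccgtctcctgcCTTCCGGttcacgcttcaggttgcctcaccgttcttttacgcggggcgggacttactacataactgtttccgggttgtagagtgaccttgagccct
Atp5pb (chr3:105959214-105959513, minus strand): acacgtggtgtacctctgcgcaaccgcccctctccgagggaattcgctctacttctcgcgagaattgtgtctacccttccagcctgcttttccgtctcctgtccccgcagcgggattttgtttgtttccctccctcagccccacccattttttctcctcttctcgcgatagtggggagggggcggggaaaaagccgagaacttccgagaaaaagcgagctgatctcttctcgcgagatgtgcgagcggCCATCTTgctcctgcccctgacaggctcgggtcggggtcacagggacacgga
Atp5g2 (chr15:102670998-102671297, minus strand): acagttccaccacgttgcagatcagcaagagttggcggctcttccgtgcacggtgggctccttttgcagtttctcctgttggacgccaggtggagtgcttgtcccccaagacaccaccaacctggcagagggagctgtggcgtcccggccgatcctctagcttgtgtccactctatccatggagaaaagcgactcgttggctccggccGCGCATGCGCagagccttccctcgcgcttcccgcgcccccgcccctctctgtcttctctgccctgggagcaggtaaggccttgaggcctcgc
Uqcr11 (chr10:80406772-80407071, minus strand): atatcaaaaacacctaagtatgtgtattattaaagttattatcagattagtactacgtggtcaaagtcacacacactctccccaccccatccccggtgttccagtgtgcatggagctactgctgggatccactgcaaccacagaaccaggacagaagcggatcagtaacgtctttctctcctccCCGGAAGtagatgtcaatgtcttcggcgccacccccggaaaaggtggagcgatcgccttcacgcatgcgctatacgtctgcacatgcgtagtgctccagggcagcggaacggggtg
Ndufaf4 (chr4:24897833-24898132, plus strand): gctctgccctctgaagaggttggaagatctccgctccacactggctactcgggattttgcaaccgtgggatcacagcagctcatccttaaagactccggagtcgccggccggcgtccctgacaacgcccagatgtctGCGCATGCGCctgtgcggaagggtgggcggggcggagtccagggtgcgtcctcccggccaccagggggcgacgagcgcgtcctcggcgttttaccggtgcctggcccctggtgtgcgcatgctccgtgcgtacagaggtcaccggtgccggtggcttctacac
Sdha held 3 NRF-1 matches, whose first bases lie 98, 55 and 10 bases before the start. Sdhd held 1 NRF-1 match 79 bases before the start and 1 ETS match, on the other strand, 46 bases before it. Atp5pb held 1 YY1 match, on the other strand, that begins 2 bases before the start. Atp5g2 and Ndufaf4 held 1 NRF-1 match each, at 42 and 113 bases before the start, and Uqcr11 held 1 ETS match at 66 bases before it. Of the 3 motifs, NRF-1 and ETS letters occurred in lower as well as higher members, and YY1 letters in 0 of the 2 higher members searched.

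In complex II 5 of 8 genes were lower in CCK+ and 0 higher (median -0.50 log2): 3 of its 4 subunits and 2 of its 4 assembly factors. At equal totals 2 of the 8 were lower and 1 was higher. Of the 13517 genes with a mean of at least 10, 2956 were lower and 3409 higher, or 1155 and 5374 at equal totals. Sdha, the flavoprotein that oxidizes succinate, ranged from 1989 to 2898 normalized counts in CCK+ (median 2476) and from 3123 to 4257 in CCK- (median 3952), a difference of -0.63 ± 0.12 log2 (SE, n = 6 libraries a side, adjusted p = 0.000816). Sdhd, which helps to anchor the enzyme in the membrane, ranged from 973 to 1492 (median 1195) against 1865 to 2471 (median 1983), a difference of -0.82 ± 0.12 (adjusted p = 9.96e-05). For both genes every CCK+ library lay below every CCK- library. Sdhb, the iron-sulfur subunit, had overlapping ranges, 380.1 to 729 against 636 to 1068, with a difference of -0.53 ± 0.14 (adjusted p = 0.00839), and was lower in CCK+ in all 6 pairs of libraries that share a letter. Sdhc, the other membrane anchor, did not pass the test: its values were 762 to 1412 against 896 to 1820.2, a difference of -0.16 ± 0.13 (adjusted p = 0.390).

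The lowest of the complex II genes relative to CCK- was Sdhaf3, an assembly factor for the iron-sulfur subunit. It was at 34.6 to 51.6 normalized counts in CCK+ (median 42.2) and at 69.5 to 132 in CCK- (median 100.5), with no overlap, a difference of -1.18 ± 0.22 log2 (adjusted p = 0.000711). Sdhaf2, which helps to attach the flavin to Sdha, differed by -0.48 (adjusted p = 0.0155). Sdhaf1 went the other way without passing the test, at 20.1 to 40.8 in CCK+ and 6.48 to 24.4 in CCK- (0.97 ± 0.37, adjusted p = 0.0595).

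In complex III 5 of 8 genes were lower in CCK+ and 2 higher (median -0.56 log2), and all 3 members counted as core were among the lower. At equal totals 2 of the 8 were lower and 3 higher. Of the 13517 genes with a mean of at least 10, 2956 were lower and 3409 higher, or 1155 and 5374 at equal totals. Uqcrc2, a core protein of the matrix arm, was at 733 to 1125 normalized counts (median 859) in CCK+ and at 1453 to 2056 (median 1882) in CCK-, a difference of -1.06 ± 0.13 log2 (adjusted p = 1.92e-05). Uqcrfs1, the Rieske iron-sulfur protein that passes electrons on toward cytochrome c, was at 418 to 773 (median 581) against 926 to 1323 (median 1208), a difference of -1.02 ± 0.13 (adjusted p = 3.00e-05). Neither gene had overlapping groups. The fitted differences on the log2(normalized count + 1) scale put CCK+ 51.9% below CCK- for Uqcrc2 and 50.8% below it for Uqcrfs1. Uqcrc1, the partner of Uqcrc2, differed by -0.55 (adjusted p = 0.00657). Among the 5 small accessory genes, Uqcrb (-0.68) and Uqcrh (-0.57), a hinge between cytochrome c1 and cytochrome c, were lower.

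A pair of small complex III genes were higher in CCK+. Uqcr11 was at 147 to 195 normalized counts in CCK+ (median 168) and at 95.9 to 164 in CCK- (median 108), a difference of 0.57 ± 0.16 log2 (adjusted p = 0.00975). Its ranges overlapped through CCK- fasted B (164), but CCK+ exceeded CCK- in all 6 pairs that share a letter. Uqcrq, another small accessory subunit, was at 255 to 396 (median 328) against 148 to 404 (median 202), a difference of 0.59 ± 0.19 (adjusted p = 0.0250). It was higher in CCK+ in 5 of these 6 pairs, the highest of all its values was again in CCK- fasted B, and its call was lost in 8 of the 12 fits that left out 1 library. Per 100 counts of Uqcrc2 there were 17.3 to 25.0 counts of Uqcr11 in CCK+ libraries and 5.29 to 8.15 in CCK- libraries. This pair was chosen after the values were seen and was not tested. Such a ratio sets libraries against each other and does not compare the abundance of the 2 genes, since counts were not divided by length.

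Complex I had 10 genes lower and 0 higher of 48, with a median of -0.22 log2 (1 lower and 7 higher at equal totals). Its share called lower was near that of all genes with a mean of at least 10 (2956 lower and 3409 higher of 13517). Its largest decrease was in Ndufab1, the mitochondrial acyl carrier protein, which is also needed for fatty acid and lipoic acid synthesis. Ndufab1 was at 184 to 448 normalized counts in CCK+ (median 284) and at 369.7 to 754 in CCK- (median 625), a difference of -1.08 ± 0.20 (adjusted p = 0.000734), and was lower in all 6 pairs that share a letter although the ranges overlapped. Of the 7 core genes 4 were lower. Ndufs1, the large iron-sulfur subunit, was at 374 to 640.0 (median 469.7) against 698 to 1296 (median 792), a difference of -0.83 ± 0.16 (adjusted p = 0.00104), with no overlap.

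The subunits that bind NADH and its first electron acceptors, Ndufv1 and Ndufv2, differed by -0.38 (adjusted p = 0.0275) and -0.58 (adjusted p = 0.00422). Core genes such as Ndufs3 (0.02) and Ndufs7 (-0.28) were not called. Of 31 accessory genes, 5 were lower: Ndufab1, Ndufs4 (-0.67, adjusted p = 0.00155), Ndufb9 (-0.45), Ndufb2 (-0.42) and Ndufb5 (-0.39). With 1 library left out, Ndufb5 lost its call in 9 of 12 fits, and Ndufv1 and Ndufaf4 in 5 each. Of the 8 complex I assembly factors only Ndufaf4 was called (-0.64, adjusted p = 0.0197), and its groups were set apart by feeding as well, as described below. Ndufaf6 had the lowest estimate of the complex, -1.30, but with values from 0.612 to 45.0 its SE was 0.69 and its adjusted p 0.172. Ndufa4, once counted with complex I and now with complex IV, was at -0.05.

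In complex IV 3 of 15 genes were lower and 0 higher, with a median of -0.15 log2. This share called lower was also near that of all genes with a mean of at least 10 (2956 lower and 3409 higher of 13517). At equal totals 1 of the 15 was lower and 4 were higher. Cox7b was at 597 to 1029 normalized counts in CCK+ (median 891) and at 1208 to 1858 in CCK- (median 1483), a difference of -0.85 ± 0.15 (adjusted p = 0.000397). Cox5a was at 300.1 to 389 (median 374) against 468 to 728 (median 517), a difference of -0.63 ± 0.13 (adjusted p = 0.00132). Both were without overlap. Cox7a2 was at 333 to 440.3 against 396 to 619, a difference of -0.37 ± 0.14 (adjusted p = 0.0495), and its call was lost in 9 of the 12 fits that left out 1 library. Cox4i1, a subunit through which ATP regulates the complex, was at 974 to 1569 against 1171 to 2093 and did not pass the test (-0.18 ± 0.12, adjusted p = 0.311).

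Complex IV also comes in isoforms, some of them typical of heart and skeletal muscle, lung or testis. The widespread forms Cox6a1 (-0.15), Cox6b1 (-0.23), Cox8a (0.02) and Cox7a2l (0.08), the last a factor that joins complexes III and IV, were not called. Of the 4 tissue-restricted forms in the table, 0 were called and 1 had an unadjusted p under 0.05. Cox7a1, the form of heart and muscle, was nevertheless measured in every library, at 66.8 to 147 normalized counts in CCK+ and 104 to 259.7 in CCK- (-0.50 ± 0.21, adjusted p = 0.0839). Cox6b2, the testis form, was at 20.5 to 54.3 against 15.3 to 30.2 (0.51 ± 0.30, adjusted p = 0.218). Cox6a2, the muscle form of Cox6a, was at 0.926 to 7.56 over all libraries. Cox4i2, the form of lung and low oxygen, was at 0 in 8 of 12 libraries and at most at 1.49.

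**Figure D2:**
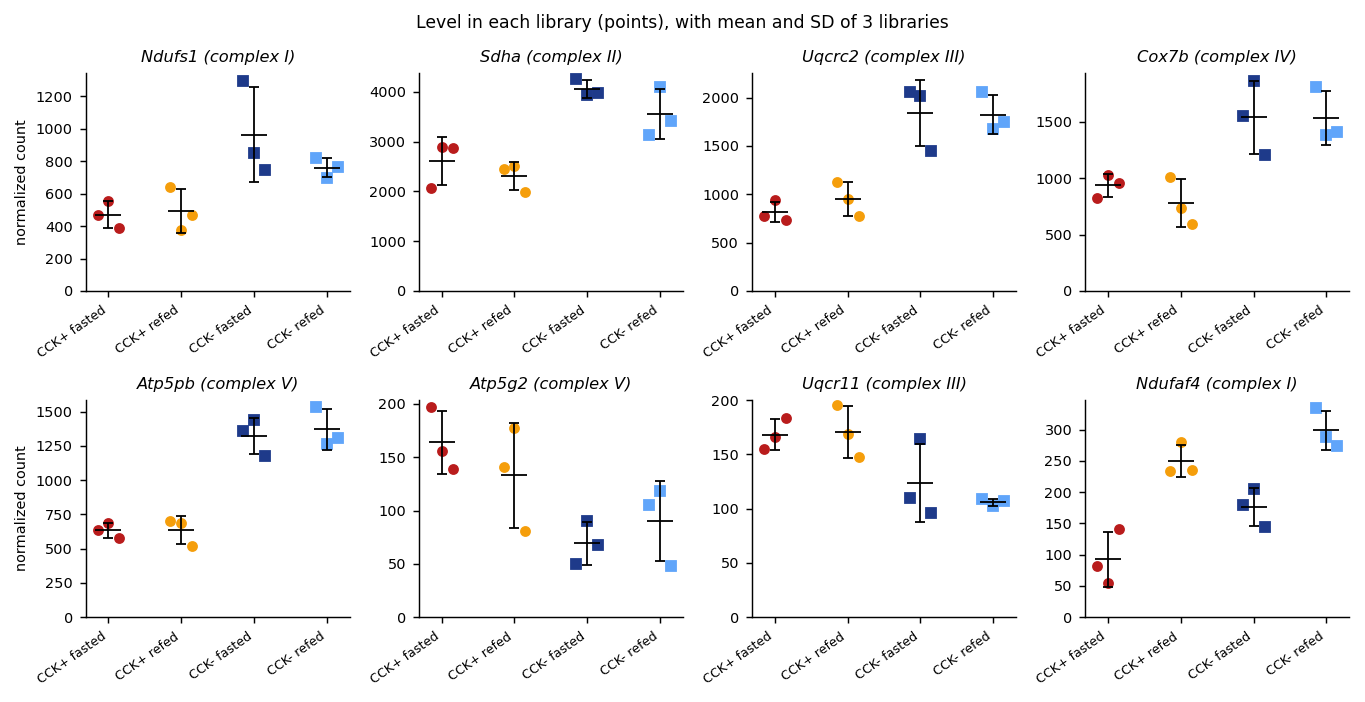
The panels plot normalized counts per library (each axis starts at 0) for Ndufs1, Sdha, Uqcrc2, Cox7b, Atp5pb, Atp5g2, Uqcr11 and Ndufaf4, with a point for each of the 3 libraries of a group and the mean ± SD. For the first 5 genes all CCK+ points lie below all CCK- points (for Atp5pb at most 704 against at least 1179), for Atp5g2 and Uqcr11 the CCK+ points are higher with some overlap, and for Ndufaf4 the refed points lie above the fasted points of the same cells.

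In complex V, 7 of 17 genes were lower and 1 was higher (median -0.24 log2). At equal totals 4 of the 17 were lower and 4 higher. Of the 13517 genes with a mean of at least 10, 2956 were lower and 3409 higher, or 1155 and 5374 at equal totals. The beta subunit Atp5b, which carries the catalytic sites, ranged from 11784 to 18558 normalized counts in CCK+ (median 15648) and from 23167 to 29557 in CCK- (median 26551), a difference of -0.83 ± 0.14 (adjusted p = 0.000384). Its partner Atp5a1, the alpha subunit, was at 4759 to 6438 (median 5759) against 6891 to 9904 (median 8139.9), a difference of -0.58 ± 0.12 (adjusted p = 0.00127). Atp5c1, the central shaft that turns inside the head, differed by -0.83 ± 0.11 (adjusted p = 3.10e-05). None of the 3 had overlapping groups. The other F1 genes did not pass the test, Atp5d at -0.04 and Atp5e at 0.30. The peripheral stalk gene Atp5pb gave the smallest p of all members: it was at 516 to 704 (median 662) in CCK+ and 1179 to 1536 (median 1332) in CCK-, a difference of -1.09 ± 0.11 (adjusted p = 4.10e-06). Atp5o (-0.47) and Atp5j (-0.45), also of the stalk, were lower, and Atp5o lost its call in 7 of the 12 fits that left out 1 library.

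The 3 genes for the c subunit, which forms the rotating ring, differed from each other. Atp5g1, Atp5g2 and Atp5g3 encode the same mature protein behind different targeting sequences. Atp5g3 was lower in CCK+, at 1145 to 1495 normalized counts (median 1219) against 1911 to 2779 (median 2214), a difference of -0.86 ± 0.11 log2 (adjusted p = 2.94e-05) with no overlap. Atp5g1 was at 881 to 1226 (median 1025) against 819 to 1248 (median 939.6), a difference of 0.12 ± 0.11 (adjusted p = 0.468). Atp5g2 was higher, at 80.4 to 197 (median 148) against 48.0 to 118 (median 79.1), a difference of 0.92 ± 0.26 (adjusted p = 0.0128), higher in all 6 pairs that share a letter, with overlapping ranges. Because parts of the 3 transcripts are alike, reads could have been shared among them in the counting, and the split between them is to that extent uncertain.

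The mix of c subunit messages was set within each library, which removes the scaling between libraries. Per 100 counts of Atp5g3 there were 75.2 to 90.3 counts of Atp5g1 in CCK+ libraries and 37.6 to 50.4 in CCK- libraries, so the ranges did not overlap. For Atp5g2 the values were 7.02 to 16.0 against 2.03 to 5.47, again without overlap. Both ratios were higher in CCK+ in all 6 pairs that share a letter. The ratio of the muscle form Cox7a1 to Cox7a2 overlapped between the groups, at 17.8 to 41.2 against 23.3 to 44.4 per 100. The ratios were chosen after the levels had been seen, and they are given without a test.

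**Figure D3:**
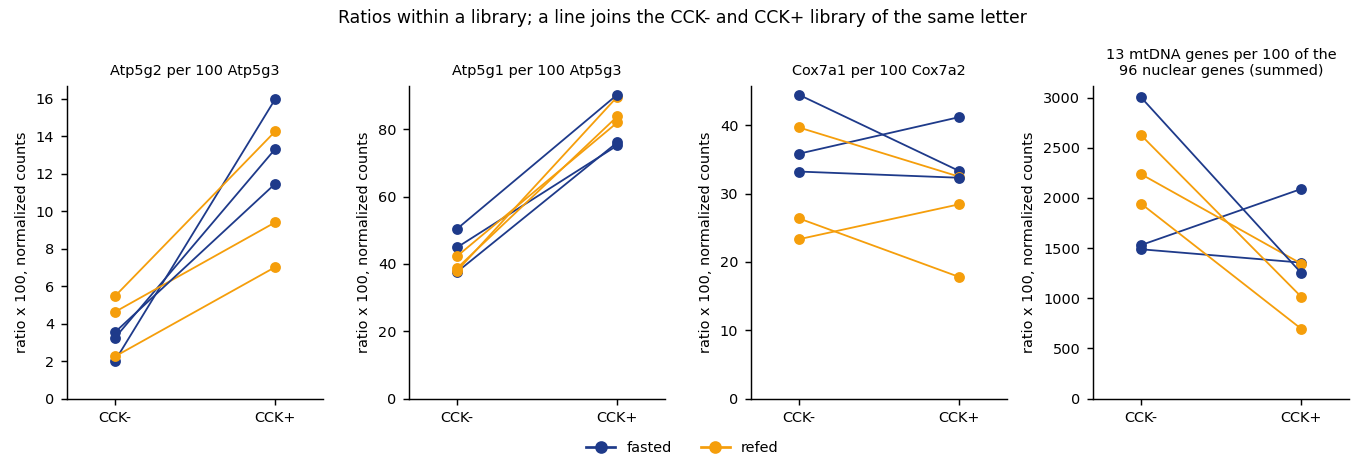
The panels plot 4 ratios of normalized counts per library, Atp5g2 and Atp5g1 per 100 of Atp5g3, Cox7a1 per 100 of Cox7a2, and the 13 mitochondrial DNA genes summed per 100 of the 96 nuclear genes summed, with lines that join the CCK+ and CCK- library of the same letter. From CCK- to CCK+ all 6 lines rise in the first 2 panels, 2 rise and 4 fall in the third, and 5 of 6 fall in the last.

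The difference between CCK+ and CCK- also varied with the length of the transcript, and many accessory subunits are very small proteins. Lengths were the median over a gene's transcripts in GENCODE vM21 and were found for 93 of the 96 members, 91 of them with a mean of at least 10. Across these 91 genes the difference had a Spearman correlation of -0.435 with length, against -0.0129 across 12886 genes of the table. Genes are not independent replicates, and the points share the same 12 libraries. The 29 members of up to 600 bases had a median difference of -0.05 log2, and 18 of them lay below 0. The 27 of over 600 to 1000 bases had a median of -0.24, the 15 of over 1000 to 1500 bases one of -0.33, and the 20 over 1500 bases one of -0.61 with 18 below 0. For all genes the medians in the same ranges were 0.27, 0.17, 0.03 and 0.01. The part of length in the differences between roles was not tested.

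**Figure D4:**
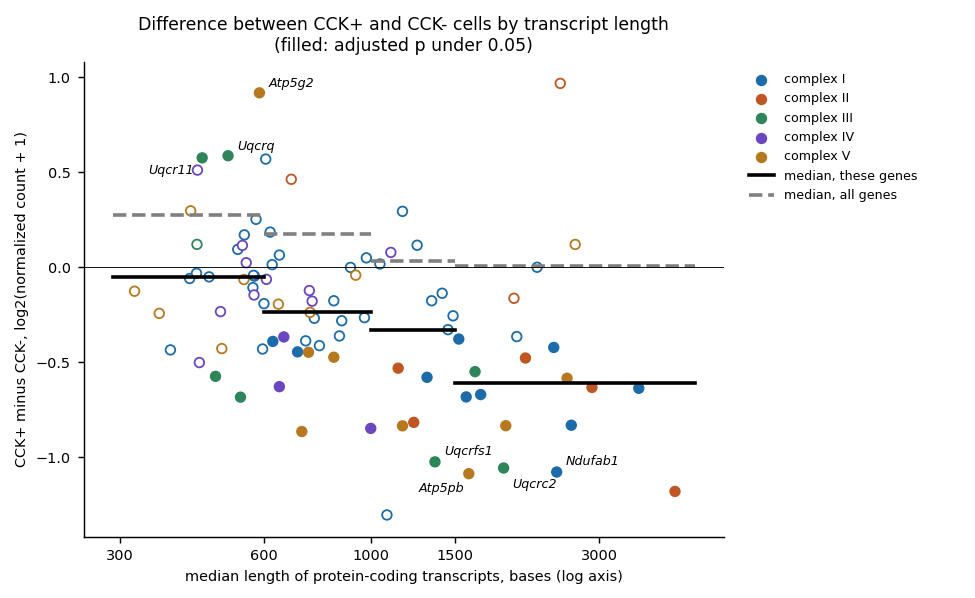
The plot sets the log2 difference CCK+ minus CCK- of 91 members against median transcript length in bases on a log axis, with the median of each length range for members (solid) and for all genes (dashed). The solid line falls from -0.05 to -0.61, and the dashed line lies above it in every range.

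The other genes of the pathway were described by lists. Of the 13 protein-coding genes of the mitochondrial DNA, which supply the remaining subunits, 12 were lower in CCK+ (11 at equal totals) and 0 higher, with a median of -1.24 log2, and they took 6.16 to 14.9% of the counts in CCK+ libraries against 14.6 to 22.2% in CCK- libraries. Their sum per 100 counts of the 96 nuclear genes was 696 to 2089.8 in CCK+ (median 1298) and 1489 to 3003 in CCK- (median 2090), lower in CCK+ in 5 of 6 pairs that share a letter. The exception was letter B, whose CCK+ fasted library is the one that stands apart. In fasted libraries 1 of the 13 was called, with all 13 below 0 and 9 at an unadjusted p under 0.05. In refed libraries 12 were called. The interaction with feeding was called for 0 of the 13 by limma, with 0 at an unadjusted p under 0.05.

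Of 5 electron carriers 4 were lower, by -1.07 log2 for Cyc1 (cytochrome c1, the complex III subunit with a symbol outside the rule), -0.80 for Cycs (cytochrome c), -0.75 for Etfa and -1.08 for Etfdh, which feed electrons from fatty acid oxidation into ubiquinone. These 4 were called lower under all 4 scalings. Of 14 tricarboxylic acid cycle genes 10 were lower and 1 was higher (median -0.67), with 6 lower and 1 higher at equal totals. Of 37 assembly factors with symbols outside the rule, 11 were lower and 1 higher (median -0.18), or 3 lower and 7 higher at equal totals. Of 15 glycolysis genes 7 were lower and 4 higher, or 4 and 4 at equal totals. The mitochondrial ribosome, which makes the proteins encoded in the mitochondrial DNA, had 7 genes lower and 11 higher of 79 (median 0.05), or 0 lower and 30 higher at equal totals. Of all 13517 genes with a mean of at least 10, 2956 were lower and 3409 higher, or 1155 and 5374 at equal totals. The share of ribosome genes called higher at equal totals was thus near that of these genes, and under the authors' scaling it was below it.

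Among 12 regulators of mitochondrial genes 3 were lower and 2 higher (2 lower and 4 higher at equal totals). Of the 13517 genes with a mean of at least 10, 2956 were lower and 3409 higher. The share of regulators called lower was thus near that of these genes. The members of the PGC-1 family of coactivators differed from each other. Ppargc1a (PGC-1alpha) was at 976 to 2075 normalized counts in CCK+ and at 3235 to 3977.8 in CCK-, with no overlap (-1.35 ± 0.10 log2, adjusted p = 2.23e-07). Pprc1, a relative of Ppargc1a that responds to growth signals, was at 83.6 to 431 against 11.4 to 59.4, also with no overlap (2.78 ± 0.27, adjusted p = 2.22e-06). Gabpa (-0.73) and Esrra (-0.60), factors that act with Ppargc1a at respiratory chain genes, were lower, and Yy1 was higher (0.32). Nrf1, which binds the motif searched above, was at 0.18 (adjusted p = 0.358).

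The median difference of the members between CCK+ and CCK- lay below 0 in either feeding state. In fasted libraries 22 members were lower and 1 higher in CCK+ (median -0.29), where 7.05% of all genes were lower and 11.2% higher. Among the 13517 genes with a mean of at least 10, 1498 were lower and 2115 higher there (median 0.004). In refed libraries 17 were lower and 2 higher (median -0.20), where 10.6% were lower and 15.3% higher. Of the same 13517 genes, 2242 were lower and 2756 higher in refed libraries (median 0.03). The share of members called lower in refed libraries was thus near that of these genes. Each state has 3 libraries a side. The difference between the states, the interaction of cell and feeding, was called for 0 members by limma, with 2 at an unadjusted p under 0.05 (Ndufaf3 and Ndufa3) and a smallest adjusted p of 0.565, and for 0.00454% of all genes.

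The second comparison asked what refeeding changed in CCK+ cells. Of the 96 members 1 was called, Ndufaf4, which was higher after refeeding, where 1.31% of all genes were higher and 1.23% were lower. A total of 10 members had an unadjusted p under 0.05. Ndufaf4 is an early assembly factor of complex I. In CCK+ cells it was at 81.6, 55.2 and 140.3 normalized counts in fasted libraries A, B and F and at 234, 279.6 and 235 in refed libraries C, D and E, with no overlap. The difference was 1.52 ± 0.27 log2 (SE, n = 3 a side, adjusted p = 0.0117), a fitted fold of 2.87 on the log2(normalized count + 1) scale. The call was lost without CCK+ fasted B (adjusted p = 0.0510), without CCK+ refed D (0.0915) or without CCK+ refed E (0.0700), and also with the compared groups fitted alone (0.179) or with no mean-variance trend (0.0615), while the difference stayed between 1.21 and 1.87 when any library was left out.

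In CCK- cells Ndufaf4 was at 179, 206 and 145 in fasted libraries and at 334, 288 and 273 in refed libraries, again with no overlap, but the difference of 0.76 ± 0.27 log2 was not called (adjusted p = 0.245). The interaction was 0.76 log2 (95% interval -0.07 to 1.59, adjusted p = 0.793), so a difference between CCK+ and CCK- cells in this response was not shown. The fasted CCK+ libraries also gave the lowest values of the gene, and CCK+ against CCK- was -1.02 in fasted libraries (adjusted p = 0.0183) and -0.26 in refed libraries (adjusted p = 0.552).

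The other assembly factors lay mostly on the same side in CCK+ cells. Of 12, 11 had a difference above 0, with a median of 0.41 log2, and this count was 11 under all 4 scalings. Of the 13517 genes with a mean of at least 10, 7014 lay above 0, or 9190 at equal totals. Equal totals moved the differences up, so the count was not likely to fall there. The 8 factors of complex I had a median of 0.72 and the 4 of complex II one of 0.18. The other 84 members had 28 above 0 and a median of -0.05, and their count above 0 moved to 60 at equal totals. Ndufaf3, a partner of Ndufaf4 in the early steps of complex I assembly, was at 69.0, 50.4 and 43.2 in fasted and 102, 104 and 88.0 in refed CCK+ libraries, with no overlap (0.87 ± 0.24, adjusted p = 0.0737). In CCK- it was at 108, 99.6 and 98.5 fasted and 73.0, 80.9 and 66.6 refed, with no overlap in the opposite direction (-0.47 ± 0.24, not called). Its interaction, 1.34 log2 (95% interval 0.62 to 2.06), had the smallest p of the members and did not pass adjustment over all genes (adjusted p = 0.565).

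The remaining complex I factors in CCK+ cells had values that overlapped more or were lower. Ndufaf5, an enzyme that modifies the core subunit Ndufs7, was at 11.9, 37.3 and 13.3 fasted and 39.7, 48.1 and 36.6 refed (1.14 ± 0.50, adjusted p = 0.264). Ndufaf6 gave 1.28 with an SE of 0.98. Ndufaf1, which helps to build the membrane arm, gave 0.58, Ndufaf7 0.48 and Ndufaf2 0.34, none of them called. Ndufaf8 was the factor below 0 (-0.32). In CCK- cells 6 of the 12 assembly factors lay above 0, with a median of -0.02. As a list with symbols outside the rule, 37 further assembly factors had a median of 0.05 in CCK+ cells, with 1 called, which was lower after refeeding.

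The subunits themselves did not pass the test between refed and fasted CCK+ cells in any complex, with 7 of the 84 members that are no assembly factor at an unadjusted p under 0.05. With assembly factors included, the median was -0.01 in complex I, 0.10 in complex II, 0.02 in complex III, -0.23 in complex IV and -0.12 in complex V, and the 4 subunits of complex II alone had a median of -0.28. At equal totals the medians of the 5 complexes moved up with the median of all genes with a mean of at least 10 (from 0.02 to 0.24), and those of complexes I and V came to lie above 0 (0.21 and 0.11). In complex II the smallest p was that of Sdhc, at 1243, 1412 and 1252 fasted and 1011, 1112 and 762 refed (-0.45 ± 0.19, adjusted p = 0.237). In complexes III, IV and V the members with the smallest p were Uqcrc1 (-0.41, adjusted p = 0.306), Cox6a1 (-0.44, adjusted p = 0.252) and Atp5d (-0.37, adjusted p = 0.392). Ndufs6b, a copy of a complex I subunit gene with low values, was at 10.6, 13.4 and 4.78 fasted and at 2.56, 0 and 0.907 refed (-2.38 ± 0.69, adjusted p = 0.0890).

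**Figure D5:**
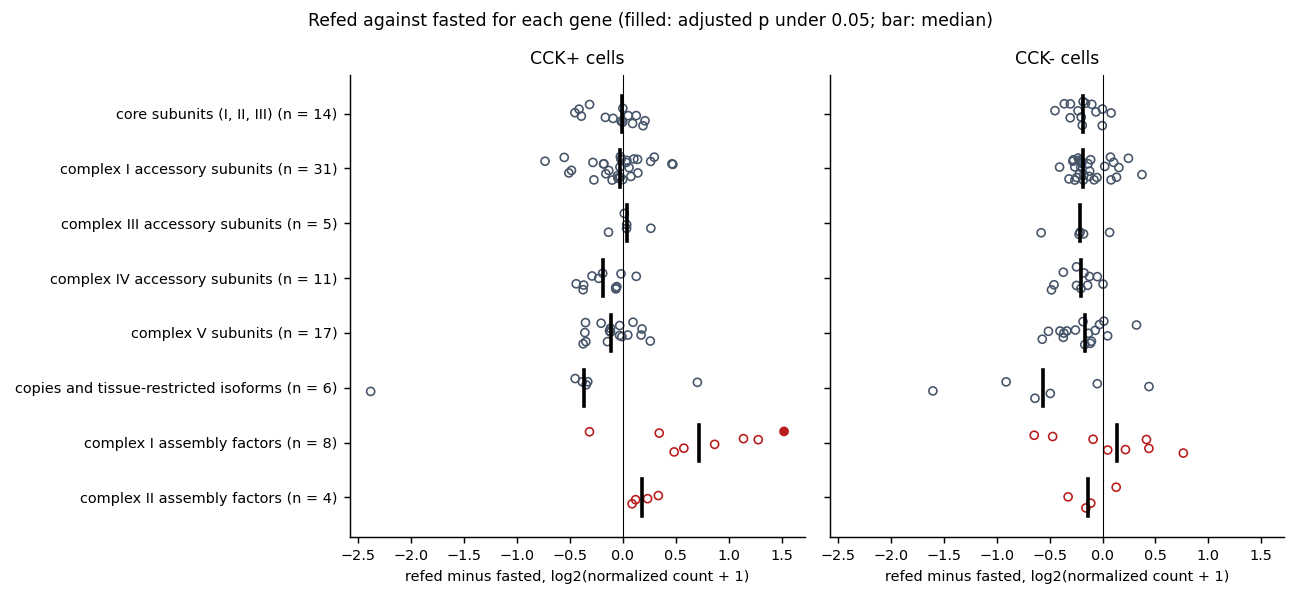
The panels plot the log2 difference refed minus fasted of each member, grouped by role, in CCK+ cells and in CCK- cells, with filled points for called genes. In CCK+ cells 11 of 12 assembly factors lie above 0 and the filled point is Ndufaf4 (1.52), while in CCK- cells 75 of 96 members lie below 0 and no point is filled.

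The third comparison, refed against fasted in CCK- cells, called 0 members by limma, with 8 at an unadjusted p under 0.05 and a smallest adjusted p of 0.245 (Ndufaf4), where 0.708% of all genes were higher and 0.526% lower. The median difference was -0.18 log2, with 21 of 96 members above 0, against 0.00 over all genes, and it was -0.10 at equal totals. It was -0.05 without CCK- fasted B and -0.30 without CCK- fasted F. The medians of the complexes lay close together, from -0.20 in complexes II and IV to -0.16 in complex I. The members with the smallest p were Sdhc in complex II (-0.45, adjusted p = 0.348), Uqcrq in complex III (-0.58, adjusted p = 0.405), Cox4i1 in complex IV and Atp5d in complex V. Cox4i1 was at 1822, 2093 and 1260.3 fasted and 1271, 1246 and 1171 refed (-0.46, adjusted p = 0.288). Atp5d was at 1890.2, 2872 and 1957 fasted and 1336, 1616 and 1507 refed (-0.57, adjusted p = 0.253).

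The lists beside the members moved in different ways after refeeding. In CCK+ cells the 13 mitochondrial DNA genes all lay below 0 under all 4 scalings, with a median of -0.76 log2, 0 called by limma and 7 at an unadjusted p under 0.05. Their sums were 777452, 1472949 and 810648 normalized counts in fasted CCK+ libraries A, B and F. In refed libraries C, D and E they were 708571, 435042 and 667577. The highest sum was thus that of CCK+ fasted B, the library that stands apart. In CCK- cells the median of the 13 genes was -0.01. The mitochondrial ribosome genes had 65 of 79 above 0 in CCK+ cells (median 0.33), 4 of them called, all higher, and 59 of 79 above 0 in CCK- cells (median 0.10) with 0 called and 9 at an unadjusted p under 0.05. Ppargc1a was lower in refed than fasted CCK+ cells, at 1251, 976 and 1137 in libraries C, D and E against 1704, 2075 and 1556 in A, B and F (-0.66 ± 0.15, adjusted p = 0.0283), but was not called at equal totals. It was not called in CCK- cells (-0.21, adjusted p = 0.653). No tricarboxylic acid cycle gene or electron carrier was called in CCK+ cells by limma, with 6 of 14 and 1 of 5 at an unadjusted p under 0.05. Beside these values, all 8 EEC markers lay above 0 in refed against fasted CCK+ cells (median 0.58 log2, 0 called by limma, 3 at an unadjusted p under 0.05), and their sums did not overlap (85249 to 176107 fasted, 219225 to 275770 refed). All 6 cycling crypt markers lay above 0 in either cell group, with 1 called in CCK+ (6 at an unadjusted p under 0.05) and 2 in CCK- (5), 1 of 8 enterocyte markers was lower in refed CCK+ cells, and the Paneth markers lay above 0 for 6 of 6 in CCK+ cells with 0 called and 4 at an unadjusted p under 0.05. Their part in the differences was not tested.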

How the data were processed

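Bulk RNA-seq of sorted CCK+ and CCK- cells was used. The droplet library of the series was not used here. According to the authors, libraries were made with Ovation kits, reads were trimmed with Trim Galore 0.6.7, quantified with Salmon 1.6.0 against Ensembl cDNA of GRCm39 and aggregated to genes by tximeta, and genes with at most 1 count were removed. The signal values deposited by the authors are such gene counts after scaling with DESeq2. The values are fractional and did not yield whole reads, so depth is unknown and no count test was run. The titles of the bulk samples name CCK+ cells throughout, but their cell-type labels distinguish CCK+ from CCK-, as does the file itself. The latter was followed, and EEC markers were checked against it.

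limma 3.58.1 in R 4.3.3 (with data.table, version 1.17.8) was fitted to log2(normalized count + 1) of every gene, with 4 group means, a mean-variance trend, 8 residual degrees of freedom and Benjamini-Hochberg adjustment, and were called at an adjusted p under 0.05. This scale understates the change of low genes. Per the study's methods each library is from 1 mouse, so libraries are the replicates (n = 3 a group). The letter that a CCK+ and a CCK- library share was a block in an alternative.

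Members and lists (13 mitochondrial DNA genes, electron carriers, tricarboxylic acid cycle, regulators, glycolysis, mitochondrial ribosome, other assembly factors and markers of 9 cell types) were chosen with earlier results of these data known. The 13 mitochondrial DNA genes were matched by Ensembl ID. Named were, in each complex and comparison, the 2 called members with the largest rise and fall or, with none called, the member with the smallest p, together with the succinate dehydrogenase subunits, 1 core subunit per complex and the isoform families. Other members, and the promoter, length and ratio descriptions, were chosen after their values were seen. Single values of 1 member of complex I are not reported here, while counts and medians include it. Alternatives were a pseudocount of 10, a mean of at least 10, equal totals, equal upper quartiles, the compared groups alone, no trend and each library left out. Ratios, promoters and figures used Python 3.11.15 with pandas 2.3.3, scipy 1.17.1 and matplotlib 3.10.9.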

Additional observations from a re-analysis of the deposited data

How the results depend on the processing

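The number of members called lower and higher in CCK+, 30 and 3, was 30 and 3 with a pseudocount of 10, 32 and 4 with a mean of at least 10, and 24 and 2 with no trend. At equal totals it became 10 lower and 19 higher, and at equal totals outside the mitochondrial DNA, an alternative chosen after seeing the data, 16 lower and 11 higher. Of the 13517 genes with a mean of at least 10, 1155 were lower and 5374 higher at equal totals. At equal totals outside the mitochondrial DNA these counts were 1668 and 4658. At equal upper quartiles 21 were lower and 5 higher. The shift follows from the scaling, since the median of the members moved from -0.24 to 0.156 and 0.0209 (log2) while that of all genes moved with it. At equal totals the median after refeeding in CCK+ was 0.20. Cox7a2 (0.0293), Ndufb5 (0.0053) and Ndufv1 (0.0184) changed sign at equal totals. In fasted libraries alone 1 was higher, and in refed libraries alone 19 were called, 17 of them lower.

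The count after refeeding in CCK+ was 2 with a mean of at least 10 and at either equal total, and 0 in the compared groups alone (Ndufaf4, adjusted p = 0.179) or with no trend (adjusted p = 0.0615). The cause was not tested.

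With 1 library left out, 27 to 38 members were called between CCK+ and CCK-, 24 to 36 lower and 1 to 3 higher, 1 of them without CCK+ refed D. Without CCK+ fasted B 33 were called, 31 lower and 2 higher. After refeeding in CCK+ 0 to 2 were called, 2 without CCK+ fasted A, and in CCK- and for the interaction 0. The medians ranged from -0.30 to -0.15 between CCK+ and CCK-, from -0.15 to 0.11 for refeeding in CCK+ and from -0.30 to -0.05 in CCK-. Over these fits 359 of 408 results for single called genes kept their call and 49 lost it. Deviations from the group means correlated at 0.0773 to 0.124 across genes where a letter was shared (6 pairs) and at -0.0826 to -0.0184 where it was not (12 pairs), so each library correlated best with its own letter, a hint from the data and not from the design. With the letter as a replicate block 38 members were called between CCK+ and CCK-, 35 lower and 3 higher, and it changed no call of a named gene. The block as a random effect left 1 call after refeeding in CCK+ and 0 in CCK-. Depth in reads is unknown, so the counting error of genes at a few counts, such as Cox4i2, Cox6a2 and Ndufs6b, could not be judged.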
